A study of Mus musculus with 6 samples.

Results

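The genes described here mark hepatic stellate cells and smooth muscle or encode fibrillar collagens, and their mRNA was measured in whole livers of mice expressing FXR-WT or Y67F-FXR. They were given as a list of 10 gene symbols of the 23284 genes in the count files. Of these, 5 are stellate cell identity genes (Lrat, Reln, Des, Pdgfrb and Dcn), 2 are contractile genes (Acta2 and Tagln) and 3 encode fibrillar collagens (Col1a1, Col1a2 and Col3a1). All 10 were found and all 10 passed the filter on low counts, which left 12453 genes for testing.

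The 6 livers came from male FXR floxed mice that had received Cre recombinase in AAV8 under the TBG promoter, which is active in hepatocytes, at 8 weeks of age. The same injection carried AAV8-TBG-FXR WT for the 3 FXR-WT samples and AAV8-TBG-Y67F-FXR for the 3 Y67F-FXR samples, so all of the mice lacked mouse FXR in hepatocytes and differed in the FXR supplied. Y67F replaces the tyrosine at position 67 of FXR, which Src phosphorylates, with phenylalanine. Livers were taken 4 weeks after injection, following 6 h on chow with 0.5% cholic acid, a bile acid that activates FXR. Neither vector was directed to stellate cells, and mice without supplied FXR or without cholic acid were not analysed here.

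Hepatic stellate cells lie between hepatocytes and the sinusoidal endothelium and store vitamin A as retinyl esters in lipid droplets. In the quiescent state they express genes of retinoid storage, and upon injury they can turn into contractile, collagen-secreting myofibroblasts, which are the main source of scar matrix in liver fibrosis. Smooth muscle of hepatic vessels and fibroblasts of the portal tracts share many of the contractile and collagen genes. In whole-liver RNA, fewer cells of a type and less RNA per cell cannot be told apart.

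The promoters of Lrat and Acta2 are shown because these genes had the largest fitted decreases of the identity and contractile genes. The windows run from 250 bases before to 50 bases after the annotated start, on the minus strand, and come from RefSeq on GRCm38.p6. Capitals mark every match to the motifs searched on both strands. These were CCAAT, which binds NF-Y, the TATA box TATAAA, the Sp1 box GGGCGG, the nuclear receptor element AGGTCA and the CArG box. The CArG box is bound by serum response factor, which drives many smooth muscle genes, and matches with up to 1 C or G in its A/T core were counted.
Lrat, chr3:82903925-82904224: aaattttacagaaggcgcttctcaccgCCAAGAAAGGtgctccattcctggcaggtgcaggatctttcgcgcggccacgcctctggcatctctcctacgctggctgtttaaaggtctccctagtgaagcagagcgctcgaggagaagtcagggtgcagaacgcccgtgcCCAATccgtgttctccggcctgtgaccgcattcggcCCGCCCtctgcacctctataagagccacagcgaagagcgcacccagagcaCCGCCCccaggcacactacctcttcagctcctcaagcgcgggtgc
Acta2, chr19:34255324-34255623: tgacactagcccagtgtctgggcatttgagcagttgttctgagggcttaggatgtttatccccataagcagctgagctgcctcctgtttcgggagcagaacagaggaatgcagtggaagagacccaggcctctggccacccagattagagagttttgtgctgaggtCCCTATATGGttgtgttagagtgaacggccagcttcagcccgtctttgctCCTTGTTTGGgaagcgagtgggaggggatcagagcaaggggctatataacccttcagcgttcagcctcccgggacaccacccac
The Acta2 window held 2 CArG boxes of this kind, beginning at -84 and -34 from the start. The Lrat window held 1, beginning at -223, beside a CCAAT match at -81 and 2 GGGCGG matches on the opposite strand. A CArG box with up to 1 C or G was present in 9.98% of all 32851 promoter windows, CCAAT in 37.4% and GGGCGG in 35.7%. Windows were at hand for 6 of the 10 genes (Col3a1, Des, Lrat, Reln, Col1a2 and Acta2). CArG boxes of this kind were matched in 3 of the 6, and AGGTCA, an element that retinoic acid receptors and related factors bind, in 0 of the 6, against 16.3% of all windows. A CArG box with no C or G in its core was matched in 0 of the 6, Acta2 included, against 1.63% of all windows.

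Library totals ranged from 19551113 to 22053320 reads. Genes were tested by the quasi-likelihood method of edgeR with Benjamini-Hochberg adjustment over the 12453 genes, and a gene was called where its fold change exceeded 1.5 with an adjusted p below 0.05. By this rule 0 of the 10 members were called, against 0.972% of all tested genes (0.426% for calls of lower expression). DESeq2 called 1 member, Lrat, against 3.6% of the 11970 genes to which it gave an adjusted p. For 9 of the 10 members the fitted level was lower with Y67F-FXR. Their median log2 fold change was -0.34, beside 0.01 over all tested genes. An unadjusted p under 0.05 with lower expression was found for 3 members (Lrat, Acta2 and Col1a1), against 6.67% of all tested genes. Without FXR-WT replicate 1, 7 of the 10 members were fitted lower, beside 6024 of the 12453 genes, and their median was -0.19. In that fit 1 member, Lrat, had lower expression at an unadjusted p under 0.05, against 6.41% of the 12606 genes then tested. The 3 Y67F-FXR livers all lay below the 3 FXR-WT livers for Lrat, Col1a1 and Col3a1, which held for 10.5% of all tested genes, and for 20.6% when either direction was counted. The smallest two-sided p that exact permutation of 3 against 3 livers allows is 0.1. Since the members were chosen with earlier results of these data known, these counts and shares are a description only.

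**Figure D1:**
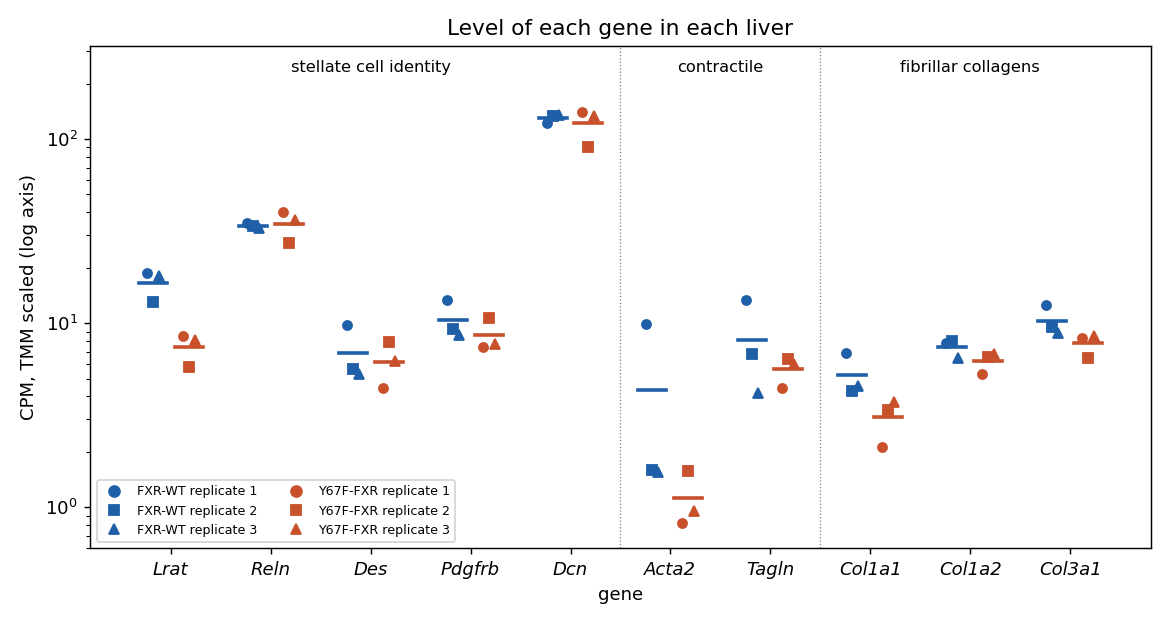
CPM of each gene (log axis) in the 6 livers, with FXR-WT in blue, Y67F-FXR in orange, a symbol for each replicate number and a bar at each group mean. Lrat is separated between groups, whereas the high FXR-WT mean of Acta2 comes from replicate 1 at 9.88 CPM.

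Lrat, which encodes the enzyme that esterifies retinol for storage in stellate cells, had the smallest p of the identity genes. Its CPM was 18.7, 13.1 and 17.9 in FXR-WT replicates 1 to 3 and 8.51, 5.78 and 8.11 in Y67F-FXR replicates 1 to 3. These values rest on 106 to 415 reads per liver. The lowest FXR-WT liver was above the highest Y67F-FXR liver, with no overlap of the groups. Mean CPM was 16.6 ± 3.05 (SD, n = 3) with FXR-WT, 7.47 ± 1.47 (SD, n = 3) with Y67F-FXR, and the fitted ratio of Y67F-FXR to FXR-WT was 0.451 (95% confidence interval 0.324 to 0.628). The log2 fold change was -1.15 (standard error 0.207), and the edgeR adjusted p of 0.0540 was just above the threshold. Over 13 alternatives of processing, the adjusted p for Lrat ranged from 0.000104 to 0.194 and the call was made in 4. It was 0.119 without FXR-WT replicate 1 and highest, 0.194, without Y67F-FXR replicate 3. For Lrat the log2 fold change stayed between -1.29 and -1.01 when single livers were omitted. Lrat lies on chromosome 3 (82696504 to 82707896 of mm9, minus strand) with 2 exons and shares no exon bases with another gene.

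The other 4 identity genes had confidence intervals that included 0. Reln, which encodes the secreted glycoprotein reelin and is made in the liver by stellate cells, had 34.9, 33.5 and 32.7 CPM in FXR-WT and 40.1, 27.4 and 36.2 CPM in Y67F-FXR livers. Dcn, which encodes decorin, a small proteoglycan that binds collagen fibrils, had 123, 133 and 134 CPM in FXR-WT and 140, 90.3 and 134 CPM in Y67F-FXR livers. For both genes the FXR-WT livers lay within the range of the Y67F-FXR livers, and the lowest value was that of Y67F-FXR replicate 2. The log2 fold change of Reln was 0.04 (95% confidence interval -0.32 to 0.40) and that of Dcn was -0.10 (95% confidence interval -0.50 to 0.30), so that a fold change over 1.5 in either direction lay outside both intervals. In mm9, Reln (64 exons) lies on chromosome 5 from 21390272 to 21850523 and Dcn (9 exons) on chromosome 10 from 96942134 to 96980796.

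Des and Pdgfrb had wider intervals. Des, which encodes the muscle intermediate filament desmin and in rodent liver also marks stellate cells, had 9.78, 5.62 and 5.31 CPM in FXR-WT and 4.42, 7.86 and 6.25 CPM in Y67F-FXR livers. Pdgfrb, which encodes the receptor through which platelet-derived growth factor drives stellate cell division, had 13.3, 9.31 and 8.64 CPM in FXR-WT and 7.44, 10.7 and 7.69 CPM in Y67F-FXR livers. In both genes FXR-WT replicate 1 was the highest of the 6 livers and the groups overlapped. For Des the log2 fold change was -0.16 (95% confidence interval -0.85 to 0.53), and that of Pdgfrb was -0.28 (95% confidence interval -0.80 to 0.24). Without FXR-WT replicate 1 these were 0.17 and -0.064. In mm9, Des (9 exons) lies on chromosome 1 from 75356919 to 75364290 and Pdgfrb (23 exons) on chromosome 18 from 61204804 to 61244721.

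Acta2, which encodes alpha smooth muscle actin, the usual marker of activated stellate cells and of vascular smooth muscle, differed through 1 liver. It had 9.88, 1.60 and 1.56 CPM in FXR-WT and 0.826, 1.58 and 0.955 CPM in Y67F-FXR livers, from 202, 33 and 36 reads and 17, 29 and 20 reads. FXR-WT replicate 1 was 7.58 times the mean of the other 5 livers, while FXR-WT replicates 2 and 3 lay on either side of Y67F-FXR replicate 2. The log2 fold change of -1.95 (standard error 0.763, edgeR adjusted p = 0.320) became -0.50 (edgeR adjusted p = 0.633) without FXR-WT replicate 1. Acta2 lies on chromosome 19 (34315581 to 34329826 of mm9, minus strand) with 9 exons. None of the 100-base windows of its GENCODE transcripts occurs in a transcript of another gene, other actins included.
Tagln, which encodes the actin-binding protein transgelin of smooth muscle, had 13.4, 6.84 and 4.19 CPM in FXR-WT and 4.42, 6.38 and 6.01 CPM in Y67F-FXR livers. FXR-WT replicate 1 was again the highest, and the other 5 livers overlapped. Its log2 fold change was -0.54 (standard error 0.393, edgeR adjusted p = 0.645) and was 0.025 without that liver. Tagln (chromosome 9, 45737711 to 45744141 of mm9) shares exon bases with Pcsk7, and 48.3% of its 100-base transcript windows occur in other genes. Reads on exon bases of both Tagln and Pcsk7 were left out of the counts. How many were lost was not measured, so the level of Tagln is uncertain.

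**Figure D2:**
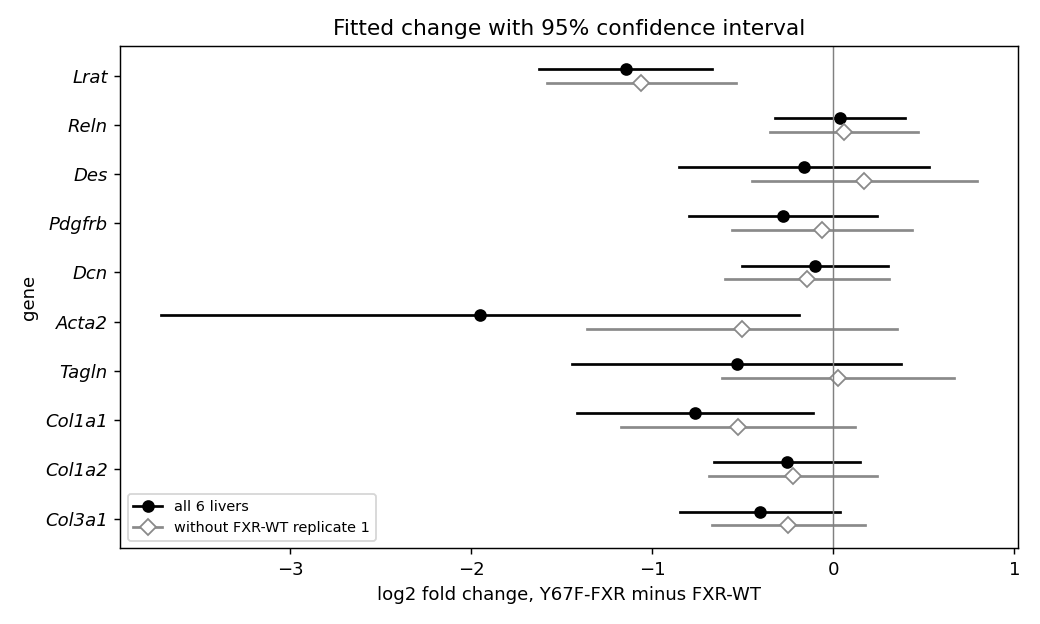
Log2 fold change of each gene, Y67F-FXR minus FXR-WT, with 95% confidence intervals from edgeR, for all 6 livers (black circles) and without FXR-WT replicate 1 (grey diamonds). Lrat stays near -1, while Acta2 moves from -1.95 to -0.50 and Tagln from -0.54 to 0.025.

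Of the fibrillar collagens, Col1a1, the alpha 1 chain of type I collagen, had 6.89, 4.27 and 4.58 CPM in FXR-WT and 2.14, 3.38 and 3.72 CPM in Y67F-FXR livers. The groups did not overlap, but the gap between FXR-WT replicate 2 and Y67F-FXR replicate 3 was smaller than the spread within either group. The values rest on 88 to 141 reads in FXR-WT and 44 to 78 in Y67F-FXR livers. The fit gave a log2 fold change of -0.77 (standard error 0.283, edgeR adjusted p = 0.285), which was -0.53 without FXR-WT replicate 1.
Col3a1, the chain of type III collagen, had 12.5, 9.55 and 8.86 CPM in FXR-WT and 8.36, 6.44 and 8.50 CPM in Y67F-FXR livers. Its highest Y67F-FXR liver lay just below its lowest FXR-WT liver, and its log2 fold change was -0.41 (standard error 0.191, edgeR adjusted p = 0.418), or -0.25 without FXR-WT replicate 1. Col1a2, whose alpha 2 chain joins alpha 1 chains in type I collagen, had 7.77, 8.05 and 6.44 CPM in FXR-WT and 5.30, 6.55 and 6.78 CPM in Y67F-FXR livers. Here the groups overlapped, and the log2 fold change was -0.26 (standard error 0.174, edgeR adjusted p = 0.613). All 3 collagens had fitted values below 0, and none passed the threshold. In mm9, Col1a1 (51 exons) lies on chromosome 11 from 94797584 to 94813170, Col1a2 (52 exons) on chromosome 6 from 4455697 to 4491543 and Col3a1 (51 exons) on chromosome 1 from 45368383 to 45406551, all on the plus strand.

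When the roles were set side by side, the median log2 fold change was -0.16 for the identity genes, -1.24 for the contractile genes and -0.41 for the fibrillar collagens. Without FXR-WT replicate 1 the medians were -0.06, -0.24 and -0.25. In that liver the contractile genes were 1.73 above their mean over the 6 livers on the log2 scale (median of the 2 genes), the identity genes 0.51 and the collagens 0.49. The summed level of the contractile genes was from 5.75 to 23.3 CPM in FXR-WT and from 5.25 to 7.96 CPM in Y67F-FXR livers, and that of the collagens from 19.9 to 27.2 CPM and from 15.8 to 19.0 CPM. Per kilobase of exon, Dcn was by far the most abundant of the 10 genes in FXR-WT livers at 62.4 ± 3.11 CPM per kb (SD, n = 3). Tagln (5.13 ± 2.99), Des (3.21 ± 1.16), Lrat (3.10 ± 0.570), Reln (2.88 ± 0.0937) and Acta2 (2.44 ± 2.69) followed in CPM per kb, and these neighbours did not differ beyond their spread. The place of Tagln was uncertain, since its exon length includes the bases shared with Pcsk7. Pdgfrb (1.93 ± 0.470), Col3a1 (1.85 ± 0.349), Col1a2 (1.44 ± 0.168) and Col1a1 (1.12 ± 0.305) had the lowest means in CPM per kb. The place of Acta2 rested on FXR-WT replicate 1 (5.55 CPM per kb), since FXR-WT replicates 2 and 3 had 0.899 and 0.874 CPM per kb, the lowest of the 10 genes in both livers. In Y67F-FXR livers Lrat, at 1.396 ± 0.275 CPM per kb (SD, n = 3), was below Reln (2.96 ± 0.559) and Des (2.87 ± 0.799) without overlap of these ranges of 1 SD.

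Further genes of the same programmes were read from 5 lists. None of their tested members was called with all 6 livers, against 0.972% of all genes. Without FXR-WT replicate 1 none was called either, against 66 of the 12606 genes then tested. Of 18 tested genes of other stellate cell markers, 15 were fitted lower and the median log2 change was -0.23, whereas 11 were lower and the median was -0.12 without FXR-WT replicate 1. Ngfr, the low-affinity nerve growth factor receptor, had a log2 fold change of -0.93 (edgeR adjusted p = 0.273), Nes, which encodes nestin, of -0.62 and Adamtsl2 of -0.30. Leaving out FXR-WT replicate 1 gave -0.50 for Ngfr, -0.18 for Nes and -0.18 for Adamtsl2. Gfap, another stellate cell marker, was not tested because it had from 5 to 13 reads.
Of 12 tested smooth muscle genes, 10 were fitted lower with a median of -0.28, and 7 of the 12 had their highest value in FXR-WT replicate 1. Without that liver 10 of the 12 were fitted lower, with a median of -0.19. Myh11, the smooth muscle myosin heavy chain, had 6.65, 2.13 and 1.38 CPM in FXR-WT and 0.826, 0.873 and 1.43 CPM in Y67F-FXR livers, again highest in FXR-WT replicate 1. Its log2 fold change of -1.68 (edgeR adjusted p = 0.267) was -0.74 without FXR-WT replicate 1. Smtn (-0.43) encodes smoothelin of contractile smooth muscle, whereas Tpm2, which encodes beta-tropomyosin, had the opposite sign at 0.81 (edgeR adjusted p = 0.253). Tpm2, Mylk and Vcl had their lowest value of the 6 livers in FXR-WT replicate 1. Cnn1, Actg2 and Myocd, which mark differentiated smooth muscle, had at most 8 reads in any liver.

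**Figure D3:**
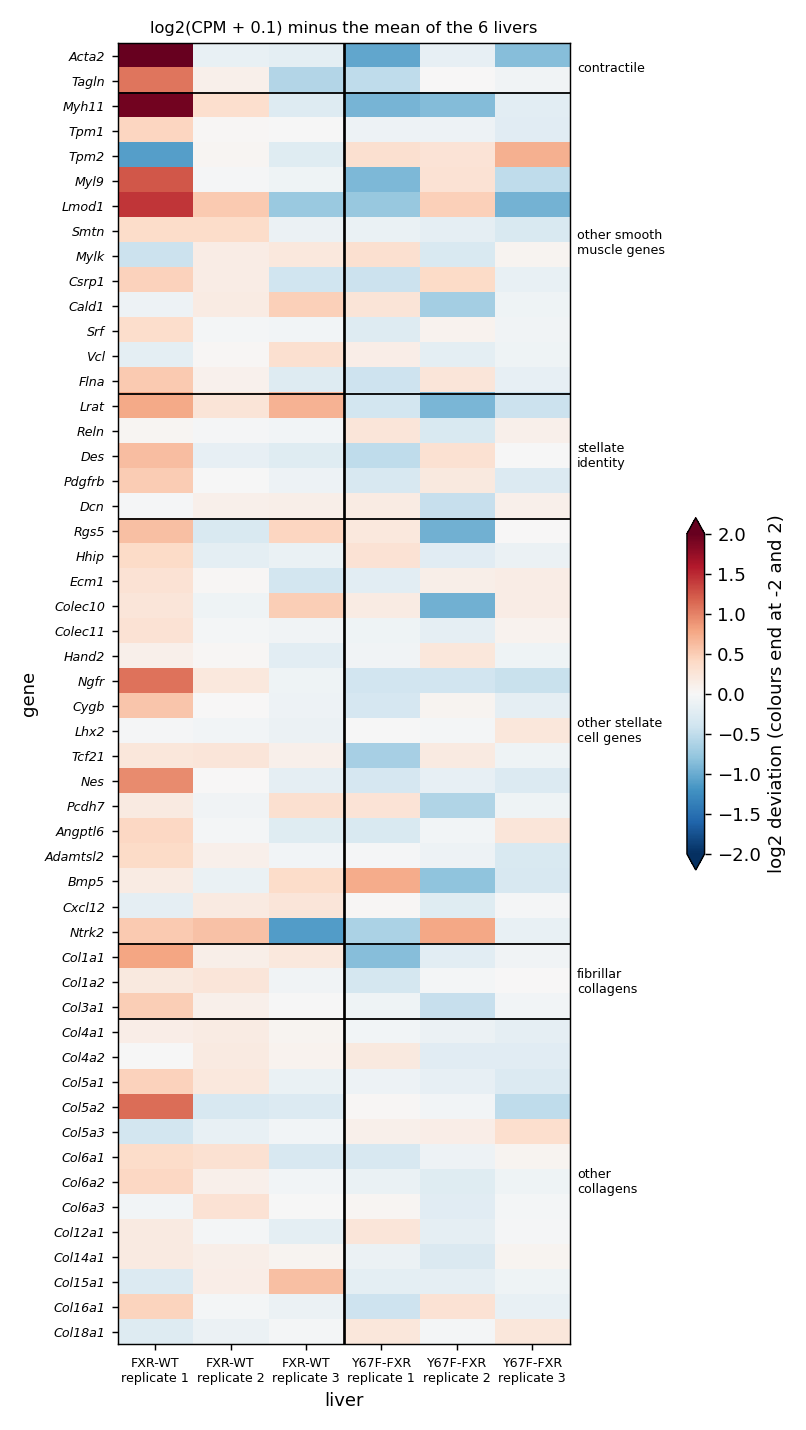
Log2(CPM + 0.1) minus the mean of the 6 livers for 52 tested genes of the 3 roles and of the lists of other smooth muscle, stellate cell and collagen genes, with red for higher and blue for lower and colours ending at -2 and 2. FXR-WT replicate 1 is red for Acta2, Tagln, Myh11, Myl9, Lmod1, Ngfr and Nes. Of the smooth muscle genes, Tpm2, Mylk and Vcl have their lowest value of the 6 livers in that same liver. Lrat is red in all 3 FXR-WT and blue in all 3 Y67F-FXR livers.

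Of 13 tested genes for other collagens, 10 were fitted lower and the median log2 change was -0.23, whereas without FXR-WT replicate 1 these were 8 and -0.19. Col4a1, a chain of basement membrane collagen, had -0.23, while Col5a3 and Col18a1, the collagen from which endostatin is cut, had 0.39 and 0.28. In the list of collagen maturation and matrix partners, 14 of 20 were fitted lower with a median of -0.13, which became 0.01 without FXR-WT replicate 1. Serpinh1, the collagen chaperone HSP47 of the endoplasmic reticulum, had 14.9, 8.48 and 11.6 CPM in FXR-WT and 4.67, 6.44 and 7.78 CPM in Y67F-FXR livers. These groups did not overlap, and the log2 fold change was -0.89 (edgeR adjusted p = 0.179). Sparc, a collagen-binding matrix protein, had -0.51 and Bmp1, the procollagen C-proteinase, 0.40.
The median log2 change over the 19 tested genes of activation and matrix turnover was -0.02, and 11 were fitted lower and 8 higher, while the median was 0.025 without FXR-WT replicate 1. Postn (-0.67), which encodes periostin, and Tgfb2 (-0.73) were lower and Smad7 (0.42), an inhibitor of TGF-beta signalling, higher in fitted value, and none of the 3 passed the threshold. Postn was at 8.12 CPM in FXR-WT replicate 1 and its log2 change was -0.30 without that liver. Timp1, which rises with stellate cell activation, had from 3 to 14 reads per liver and was not tested.

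Markers of other liver cells were read beside these genes. Alb, at a mean of 71311 CPM in FXR-WT, led the hepatocyte markers, and the median log2 change of the 8 hepatocyte markers was 0.11 (Cps1, 0.46). The sinusoidal endothelial markers had a median of 0.02, and their summed level ranged from 253 to 283 CPM in FXR-WT and from 266 to 272 CPM in Y67F-FXR livers. Of these, Clec4g was the most abundant and Lyve1 had a log2 fold change of -0.89 (edgeR adjusted p = 0.210), or -0.56 without FXR-WT replicate 1. Kupffer cell and leukocyte markers had a median of 0.04 and a summed level from 152 to 218 CPM in FXR-WT and from 124 to 331 CPM in Y67F-FXR livers, with Clec4f the most abundant and Marco (1.63) furthest from 0. Marco was at 62.2 CPM in Y67F-FXR replicate 2 and from 5.40 to 16.5 CPM in the other 5 livers. Cholangiocyte markers, led by Spp1, had a median of 0.05 (Krt19, -0.80), with Cftr not tested at the depth of these libraries. Portal fibroblast and mesothelial markers, led by Eln, summed to between 10.9 and 13.2 CPM in FXR-WT and between 10.1 and 12.2 CPM in Y67F-FXR livers, with a median of -0.10 (Fbln2, -0.79). FXR-WT replicate 1 held the highest value of 20.7% of all tested genes and of 7 of the 10 members. Among the markers these were 0 of 8 for hepatocytes, 4 of 9 for endothelial cells, 0 of 8 for Kupffer cells and leukocytes, 0 of 5 for cholangiocytes and 2 of 7 for portal fibroblasts and mesothelium. Among the related lists they were 10 of 18 other stellate cell genes, 7 of 12 smooth muscle genes, 6 of 13 other collagens, 11 of 20 collagen maturation genes and 6 of 19 activation genes. Without that liver the marker medians were 0.26 for hepatocytes, 0.055 for endothelial cells, 0.15 for Kupffer cells and leukocytes, 0.16 for cholangiocytes and -0.13 for portal fibroblasts and mesothelium. The part of cell makeup in the results for Acta2 and Tagln was not tested.
The libraries also differed by gene length in a way that crossed the groups. On the log2 scale, the shortest genes deviated from their means by 0.20 for FXR-WT replicate 1 and by 0.22 for Y67F-FXR replicate 2, and by -0.18 and -0.20 in FXR-WT replicate 3 and Y67F-FXR replicate 1. With offsets for gene length, the log2 fold change was -1.18 for Lrat (edgeR adjusted p = 0.0189) and -1.92 for Acta2 (edgeR adjusted p = 0.224).

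Since Lrat acts in retinoid storage, 19 genes of retinoid handling were then read as a description. This list was written after the values of Lrat were seen. Of the 14 tested, 7 were fitted lower and the median log2 change was -0.07. The groups did not overlap for 4 of the 14, with 3 lower and 1 higher in Y67F-FXR livers, beside 20.6% of all tested genes. Cyp26a1, the hydroxylase that clears retinoic acid, had 49.8, 20.8 and 22.7 CPM in FXR-WT and 3.35, 5.84 and 4.87 CPM in Y67F-FXR livers. The groups were far apart, and the log2 fold change of Cyp26a1 was -2.73 (standard error 0.380, edgeR adjusted p = 0.0244), the 1 call among the 14 genes, against 0.972% of all tested genes. The call was made in 9 of 13 alternatives, with adjusted p from 6.69e-11 to 0.127. The log2 fold change was -2.22 without FXR-WT replicate 1, where its level was highest, and its adjusted p was 0.0614 without FXR-WT replicate 3, 0.0763 without Y67F-FXR replicate 1 and 0.127 without Y67F-FXR replicate 3. With the replicate number as a block it was 0.126.
Rarb, which encodes a retinoic acid receptor, had 3.72, 3.39 and 4.32 CPM in FXR-WT and 2.43, 2.13 and 2.29 CPM in Y67F-FXR livers. These groups did not overlap, with a log2 fold change of -0.74 (edgeR adjusted p = 0.153). Rdh11, a retinal reductase, had a log2 fold change of -0.63 (edgeR adjusted p = 0.166) and no overlap. Rdh10, which oxidizes retinol to retinal, was the gene with every Y67F-FXR liver higher, at 17.6, 16.3 and 18.02 CPM in FXR-WT and 19.4, 19.7 and 19.0 CPM in Y67F-FXR livers (log2 fold change 0.16, edgeR adjusted p = 0.636). Rbp4, the retinol carrier that hepatocytes secrete, had a log2 fold change of 0.12, and Cyp26b1, the paralog of Cyp26a1, of 0.12.

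**Figure D4:**
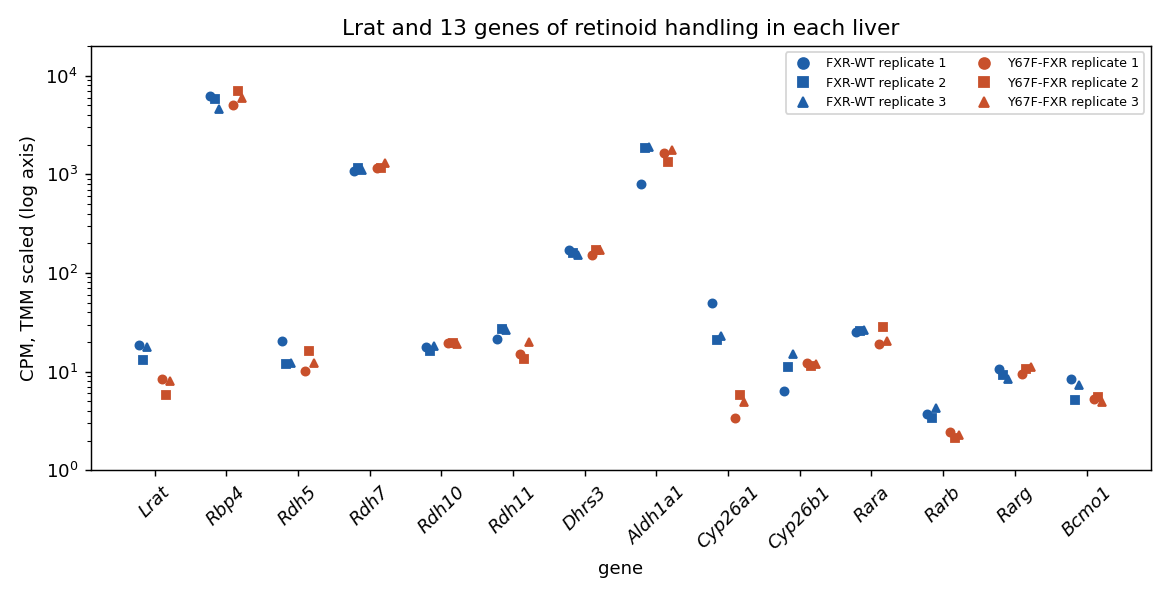
CPM (log axis) of Lrat and of 13 of the tested genes of retinoid handling in each liver, with FXR-WT in blue and Y67F-FXR in orange. Lrat, Cyp26a1, Rarb and Rdh11 have every Y67F-FXR liver below every FXR-WT liver, and Rdh10 has every Y67F-FXR liver above.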

How the data were processed

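RNA from mouse livers with FXR-WT (3 libraries) or Y67F-FXR (3 libraries) was sequenced as paired-end 100 bp reads on a HiSeq2000. The study's methods give 1 library per biological sample. The authors trimmed the reads with Trimmomatic 0.36, aligned them to mm9 with STAR 2.5.3a (per the submitters' processing notes) and deposited counts per gene, which were not normalized. Per the file headers, featureCounts 1.4.6-p4 counted single reads on exons without regard to strand. Reads on several genes were left out. The authors' table of fold changes and p-values was not used.

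Counts were filtered with filterByExpr, scaled by TMM and tested with glmQLFit and glmQLFTest in edgeR 4.0.16 (R 4.3.3). CPM values use the same factors. Standard errors come from the F statistic. Alternatives were RLE factors, library totals, DESeq2 1.42.0, no filter, 1 CPM in at least 3 libraries, other thresholds, loess offsets for gene length (span 0.3), a block on replicate number and each liver left out. Named are the 10 members, the 3 genes of each related list with the smallest p, the most abundant gene and the one with the smallest p of each marker list, and the 5 genes most like Acta2, Lrat and Col1a1. Some items are not reported here. Other genes were named after their values were seen. The members and lists were chosen with earlier results of these data known. Replicates of a group differed by more than counting noise (median chi-square per gene from 2.21 to 7.84). Fits were tested on simulated data. Gene coordinates follow mm9, as deposited. Figures were drawn with matplotlib 3.10.9.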

Additional observations from a re-analysis of the deposited data

How the results depend on the processing

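The number of genes called was 121, 53 lower and 68 higher. It was 431 (216 and 215) with DESeq2, 247 (124 and 123) with gene length offsets and 783 (401 and 382) at an unadjusted p under 0.05 with the same fold, and 81 genes were lower with no low count filter. Scaled by library totals alone, it was 120 (68 lower and 52 higher). With each liver left out, it ranged from 9 to 66, from 7 to 33 lower and from 2 to 35 higher. Of the members, 1 was called (Lrat) with RLE factors, DESeq2, no low count filter or length offsets, and 3 (Lrat, Acta2 and Col1a1) at the unadjusted p, with 0 in every fit that left out a liver. The median of the contractile genes ranged from -1.61 to -0.24 with each liver left out, the last without FXR-WT replicate 1. The log2 fold change of Reln turned to -0.025 with library totals. With each liver left out it ranged from -0.083 (without Y67F-FXR replicate 1) to 0.17 for Reln, from -0.38 to 0.17 (without FXR-WT replicate 1) for Des, from -0.21 to 0.063 (without Y67F-FXR replicate 2) for Dcn and from -0.85 to 0.025 (without FXR-WT replicate 1) for Tagln. Des was also above 0 (0.032) without Y67F-FXR replicate 1. The cause was not tested. Of the other alternative values for single members, 120 kept their sign and side of the threshold and 4, all of Lrat, gained the call. Replicate numbers did not pair the livers, since the correlations of same-numbered deviations across genes were -0.52, -0.08 and 0.12. With the replicate block, 8 genes were called (6 lower and 2 higher) and 0 members. Acta2 rests on as few as 17 reads per liver, which limits its precision.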

Other observations

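The 5 genes most like a member were those with the highest Pearson's r of log2 CPM over the 6 livers, among 11504 other genes averaging 1 CPM or more. They are given as a description of 6 points from 2 groups, with no p. For Acta2, 4 of them were Tars2, Podxl, Fgf21 and Ttc35, with r from 0.992 to 0.997. Fgf21, a hormone that hepatocytes secrete, had 63.0 CPM in FXR-WT replicate 1 and from 8.35 to 14.6 CPM in the other 5 livers. For Lrat they were Nfyb, Copg, Itga1, Pdia4 and Rbm15b, with r from 0.994 to 0.997. Itga1 encodes integrin alpha 1, which binds collagen and laminin, and had 10.3, 8.44 and 9.98 CPM in FXR-WT and 6.71, 4.86 and 6.25 CPM in Y67F-FXR livers (log2 fold change -0.69, edgeR adjusted p = 0.139). Pdia4, a protein disulfide isomerase of the endoplasmic reticulum, was called lower (log2 fold change -1.35, edgeR adjusted p = 0.0304), and its exons overlap those of Mir704. For Col1a1 they were Snx3, Mrrf, Tmem214, Hs3st6 and Rwdd1, with r from 0.991 to 0.997.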
